A study of Zea mays with 20 samples.

Results

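Transcripts of 5 auxin response factor genes, ARF2 (GRMZM2G153233), ARF3 (GRMZM2G078274), ARF11 (GRMZM2G056120), ARF13 (GRMZM2G378580) and ARF28 (GRMZM2G006042), were followed in maize that gains or loses activity of the homeobox gene kn1. They are 5 of the 39656 genes in the count table and 5 of its 20 rows with an ARF symbol. They were selected on measured values of these same counts, and which comparison was used was not recorded. Every comparison is therefore treated as one that may have chosen them: their values and p-values describe these libraries and are not independent support. The 15 other ARF rows are given beside them as a comparison. All plants were of the inbred B73 background. Young leaves were taken in the greenhouse at 10 days after germination as tubes 7 to 8 mm long, from plants homozygous for the dominant allele (Kn1-N/Kn1-N), heterozygous (Kn1-N/+) or wild type (WT), with 2 libraries each. Tassel primordia (3 libraries a group, pools of 10) and ear primordia (2 a group, pools of 6 to 8) came from field-grown kn1-e1/kn1-e1 plants and their siblings. Shoot apical meristems (SAM) with their youngest leaves came from greenhouse plants of the same genotypes at 19 days (2 libraries a group, pools of 15). The sibling controls are titled wild type, carry the genotype label kn1-e1/+ and are described in the design as heterozygote or wild type, so some may carry the mutant allele. Mutant tassels measured 2 to 3 mm and sibling tassels 4 to 5.5 mm, and mutant ears 4 to 5 mm and sibling ears 7 to 8 mm. In both inflorescences, genotype and primordium size cannot be told apart.

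Auxin response factors are DNA-binding proteins that recognise auxin response elements in promoters, and members of the family activate or repress transcription there. At low auxin, Aux/IAA proteins bind them and recruit TOPLESS-type corepressors such as maize rel2. Auxin brings Aux/IAA proteins to TIR1/AFB receptors for degradation, which frees the response factors, and Aux/IAA and GH3 genes are among their usual targets. Transcripts of some response factors are also cut by trans-acting small RNAs, whose production in maize needs lbl1. KNOTTED1 is a KNOX transcription factor made in shoot meristems and absent from normal leaves. Numbers in maize ARF names do not imply kinship with the Arabidopsis gene of the same number.

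Libraries held 16068246 to 20722952 counts. Levels are CPM (counts scaled to a common library size with TMM factors), not divided by gene length, so they compare samples and not genes. The kn1 transcript followed the leaf labels, with 162 and 223 counts in Kn1-N/Kn1-N, 103 and 126 in Kn1-N/+, and 1 and 0 in WT. In siblings it lay at 184 to 207 CPM in tassel, 126 to 135 CPM in ear and 32.3 to 36.1 CPM in SAM, and in kn1-e1 at 37.0 to 57.3, 32.9 to 33.0 and 9.87 to 11.8 CPM. The summed level of 9 green leaf markers was 630 to 850 CPM in leaf and at most 40.9 CPM elsewhere. The 6 meristem markers other than kn1 summed to 173 to 209 CPM in SAM and 175 to 218 CPM in leaf, so they do not separate these tissues, and to 646 to 761 CPM in the inflorescences. The 23 inflorescence markers summed to 706 to 754 CPM in sibling SAM and 662 to 664 CPM in kn1-e1 SAM. Sibling tassel stood at 657 to 682 CPM and sibling ear at 927 to 959 CPM, so this sum does not separate SAM from tassel. The 2 sibling SAM libraries stood apart from each other: their counts differed by a chi-square of 12.3 per degree of freedom, against 1.83 to 5.50 for replicate pairs elsewhere. Where leaving 1 of them out moved a value of the 5 genes across the threshold, the value without it is also given. Other results that use them are given with both, unless stated. The labels do not say how replicates relate beyond their pools, so p-values measure only the spread between these libraries. In these bulk tissues, fewer cells of a type and less RNA per cell cannot be told apart.

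All 5 genes passed the filter on low counts in every fit, with 175 counts or more in each library. ARF2 had 175 to 716 counts, ARF3 2319 to 10064, ARF11 551 to 4455, ARF13 5092 to 16071 and ARF28 2223 to 7134. The libraries kept no strand, and how reads that match several genes were counted was not given in the sources used here. A level could thus include reads of a close copy or of an overlapping gene on the other strand.

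**Figure D1:**
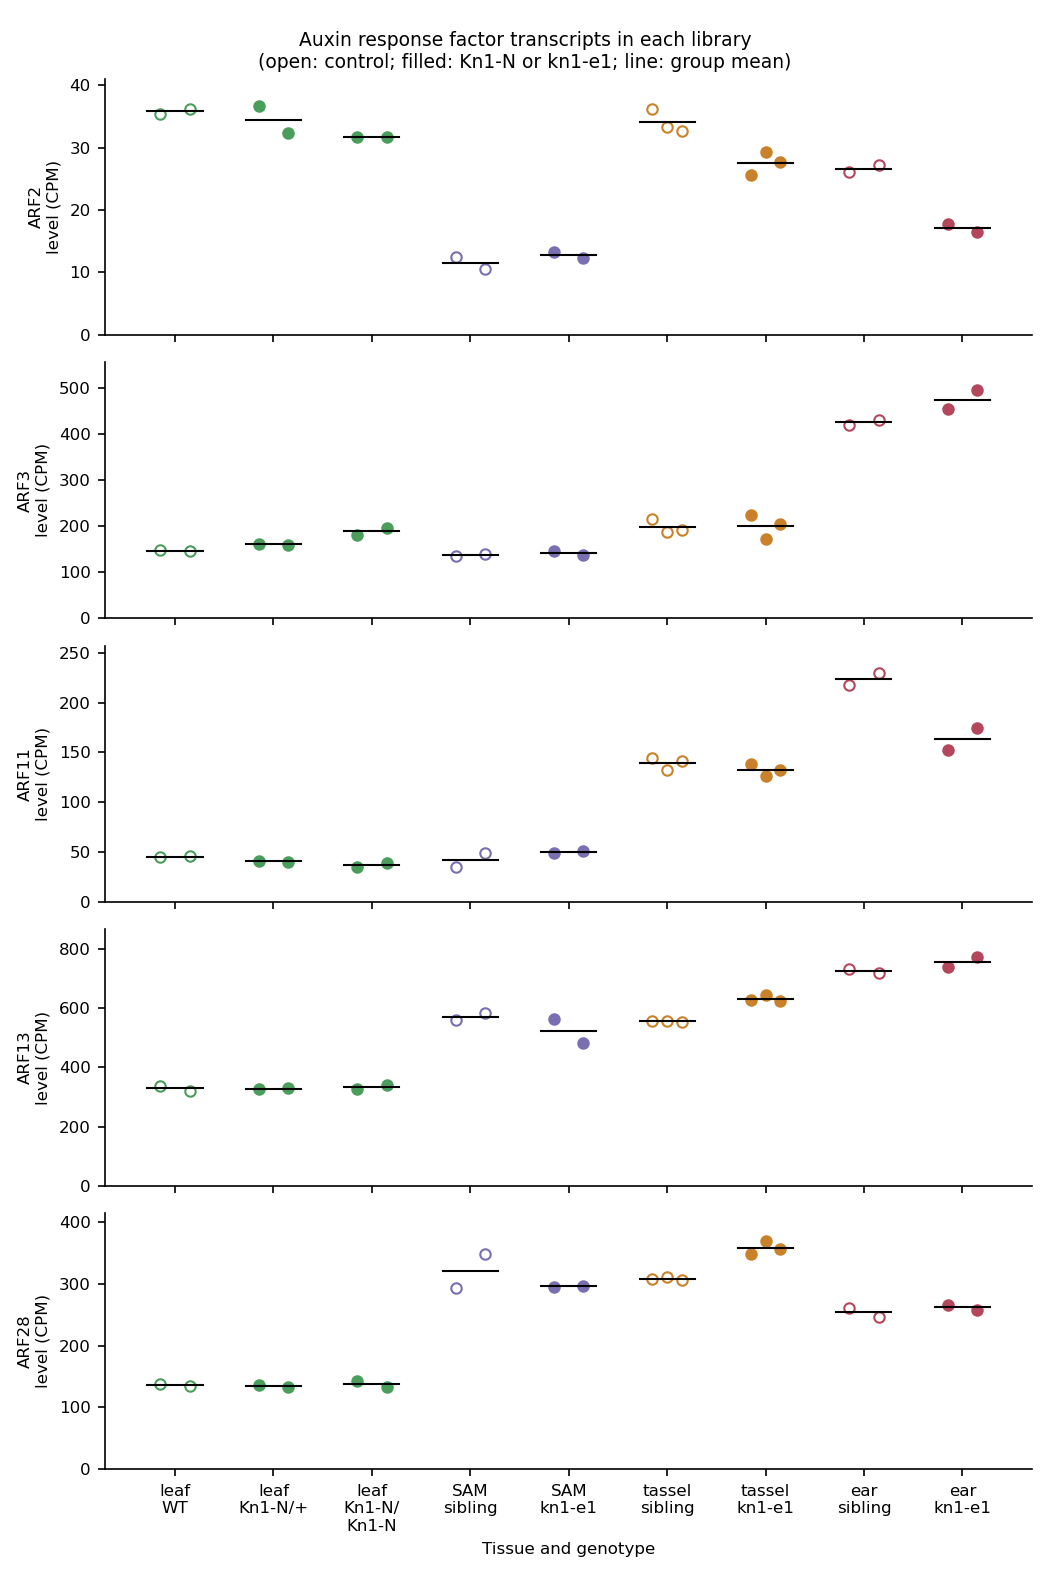
Level (CPM, linear axis from 0) of each of the 5 genes in every library, by tissue and genotype; open points are controls, filled points are Kn1-N or kn1-e1, and the line is the group mean. ARF3 stands at 181 and 197 CPM in Kn1-N/Kn1-N leaf against 146 and 149 CPM in WT, and ARF2 falls from 26.1 and 27.2 CPM in sibling ears to 16.5 and 17.7 CPM in kn1-e1 ears.

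The first comparison asked how ectopic KNOTTED1 in the leaf affects these transcripts. In Kn1-N/Kn1-N leaf, ARF3 rose and ARF11 fell, whereas ARF2, ARF13 and ARF28 did not pass the test. ARF3 measured 181 and 197 CPM in Kn1-N/Kn1-N, 160 and 162 CPM in Kn1-N/+ and 146 and 149 CPM in WT. The 3 genotypes do not overlap and stand in the order of the number of Kn1-N copies. Against WT, ARF3 was higher by 0.37 ± 0.06 in homozygotes (log2 fold change ± SE; 1.29-fold; edgeR adjusted p = 0.00107). It was also higher than in heterozygotes, by 0.24 ± 0.06 (edgeR adjusted p = 0.0369). That second difference missed the threshold in 7 of 12 alternatives, with adjusted p from 0.0229 to 0.478, and the first only without homozygous replicate 2 (adjusted p = 0.0503).

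ARF11 ran the other way, at 35.2 and 39.4 CPM in Kn1-N/Kn1-N, 40.2 and 41.5 CPM in Kn1-N/+ and 45.5 and 45.7 CPM in WT, again without overlap. Its difference from WT was -0.27 ± 0.07 in homozygotes (log2; 0.827-fold; edgeR adjusted p = 0.0223). The call was lost in 6 of 12 alternatives (adjusted p 0.00734 to 0.222): when any single homozygous or WT library was left out, with DESeq2 (adjusted p = 0.0766) and with all 20 libraries in 1 fit (adjusted p = 0.0727). ARF2 measured 31.7 CPM in both homozygous libraries, 32.3 and 36.6 CPM in Kn1-N/+ and 35.4 and 36.2 CPM in WT. The homozygous libraries lie below both other genotypes, but the difference from WT of -0.16 ± 0.08 did not pass (edgeR adjusted p = 0.184).

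ARF13 and ARF28 overlapped between all 3 leaf genotypes. ARF13 lay at 326 and 339 CPM in Kn1-N/Kn1-N, 327 and 330 CPM in Kn1-N/+ and 320 and 337 CPM in WT. ARF28 lay at 133 and 142, 133 and 137, and 135 and 138 CPM in the same order. Neither homozygous difference exceeded 0.03 on the log2 scale, with an SE of 0.06 for each, and its sign changed under library totals. In all, 2 of the 5 genes were called in homozygotes, where 18.8% of all genes tested were called (9.16% higher and 9.59% lower), and 3 of 5 had groups that did not overlap, against 63.2% of all genes.

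In Kn1-N/+ against WT, edgeR called 0 of the 5 genes, and DESeq2 also called 0; 0.145% of all genes tested were called. At an unadjusted p under 0.05 there was 1, ARF3, against 1561 of all 22071 genes tested. The ARF3 value was 0.14 ± 0.06 (log2; edgeR adjusted p = 0.691). The value for ARF11 was -0.15 ± 0.07 (edgeR adjusted p = 0.719). Groups did not overlap for these 2 genes, against 34% of all genes. Between homozygotes and heterozygotes, 1 of 5 was called, ARF3, against 4.75% of all genes (1.64% higher and 3.12% lower), and 3 of 5 did not overlap, against 52.2%. The summed level of the lateral organ markers yab14 and yabby15, which are YABBY genes of leaf and floral organs, moved with the leaf genotype as well: it was 83.7 to 89.6 CPM in Kn1-N/Kn1-N, 63.9 to 69.8 CPM in Kn1-N/+ and 39.5 to 45.6 CPM in WT. The 6 meristem markers other than kn1 ran the other way, summing to 175 to 181 CPM in Kn1-N/Kn1-N, 191 to 206 CPM in Kn1-N/+ and 212 to 218 CPM in WT. The 23 inflorescence markers summed to 179 to 183 CPM in Kn1-N/Kn1-N, 183 to 188 CPM in Kn1-N/+ and 188 to 191 CPM in WT. The part of these markers in the ARF differences was not tested.

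**Figure D2:**
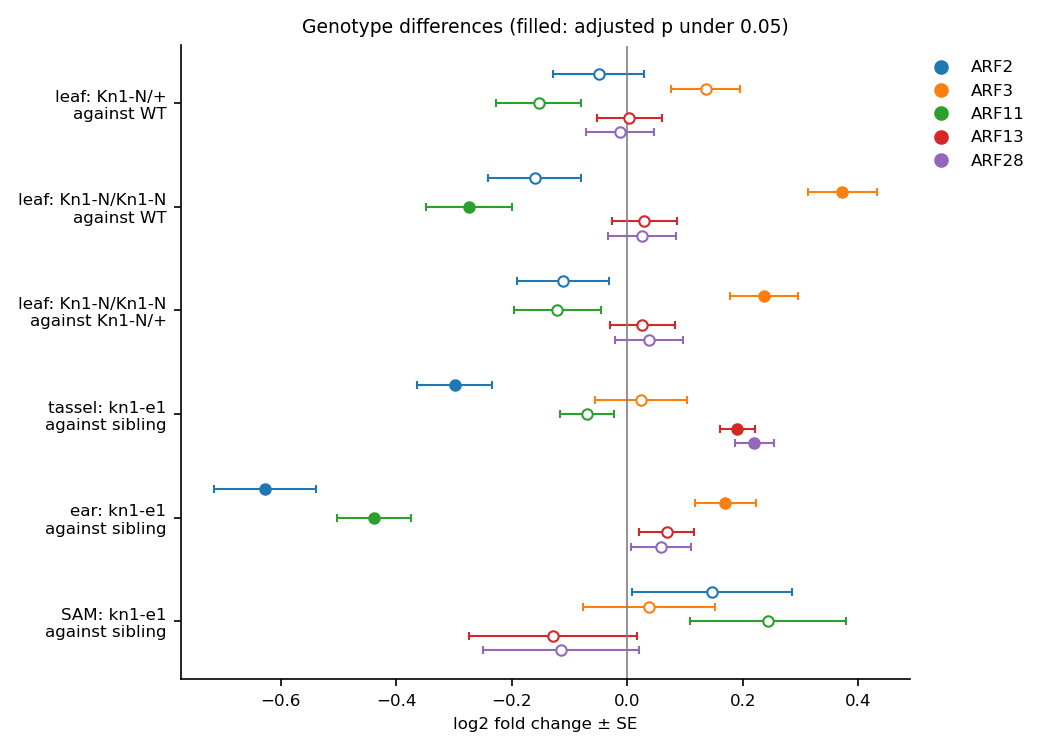
Log2 fold change (horizontal axis, bars are SE) of the 5 genes in each genotype comparison; filled points have an adjusted p under 0.05 over all genes tested. ARF2 lies left of 0 in tassel and ear (-0.30 and -0.63), ARF13 and ARF28 are filled in tassel only, and no point is filled in SAM.

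In kn1-e1 tassels, ARF2 fell while ARF13 and ARF28 rose. ARF13 measured 625, 628 and 644 CPM in kn1-e1 and 554, 556 and 558 CPM in siblings. ARF28 measured 348, 356 and 370 CPM in kn1-e1 and 306, 308 and 311 CPM in siblings. For both genes every mutant library lay above every sibling library, and the sibling libraries spread by only a few CPM. The difference was 0.19 ± 0.03 for ARF13 (log2; 1.14-fold; edgeR adjusted p = 0.00202) and 0.22 ± 0.03 for ARF28 (1.16-fold; edgeR adjusted p = 0.00185). Both calls held in 12 of 12 alternatives, with adjusted p up to 0.0429 and 0.0204.

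ARF2 measured 25.7, 27.7 and 29.3 CPM in kn1-e1 tassels and 32.6, 33.4 and 36.1 CPM in siblings, all mutant libraries being lower. The difference was -0.30 ± 0.07 (log2; 0.813-fold; edgeR adjusted p = 0.0141). It did not pass without mutant replicate 1 (adjusted p = 0.0526) or without sibling replicate 1 (adjusted p = 0.0751), and ranged from 0.00257 to 0.0751 over 12 alternatives. ARF3 spread from 173 to 225 CPM in kn1-e1 and from 187 to 216 CPM in siblings, so that the groups overlapped. ARF11 also overlapped, at 126 to 138 CPM in kn1-e1 and 133 to 144 CPM in siblings. In tassel, 3 of 5 genes were called, against 7.91% of all genes tested (2.35% higher and 5.55% lower), and the same 3 did not overlap, against 26.3% of all genes. The lateral organ markers summed to 41.1 to 46.2 CPM in kn1-e1 tassels and 56.1 to 63.8 CPM in siblings, and the 23 inflorescence markers to 713 to 732 and 657 to 682 CPM. Their part in these differences, like that of the smaller size of mutant tassels, was not tested.

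In kn1-e1 ears, ARF2 and ARF11 fell and ARF3 rose. ARF2 measured 16.5 and 17.7 CPM in kn1-e1 and 26.1 and 27.2 CPM in siblings. ARF11 measured 153 and 175 CPM in kn1-e1 and 217 and 229 CPM in siblings. In each case the gap between the groups was wider than the spread within them. The differences were -0.63 ± 0.09 for ARF2 (log2; 0.647-fold; edgeR adjusted p = 0.00034) and -0.44 ± 0.06 for ARF11 (0.738-fold; edgeR adjusted p = 0.000408), and both held in 10 of 10 alternatives.

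ARF3 measured 454 and 496 CPM in kn1-e1 ears and 419 and 431 CPM in siblings. The groups did not overlap, and the difference of 0.17 ± 0.05 (log2; 1.13-fold) passed at an edgeR adjusted p of 0.0402. It did not pass in 4 of 10 alternatives: with DESeq2 (adjusted p = 0.0885), with all 20 libraries in 1 fit (0.249) and without sibling replicate 1 (0.335) or 2 (0.24). ARF13 lay at 738 and 773 CPM in kn1-e1 and 720 and 732 CPM in siblings, a difference of 0.07 ± 0.05 (edgeR adjusted p = 0.352). ARF28 overlapped, at 258 and 266 CPM in kn1-e1 and 246 and 262 CPM in siblings. Of the 5 genes, 3 were called, against 18.6% of all genes tested (8.21% higher and 10.4% lower), and 4 did not overlap, against 60.1% of all genes. The green leaf markers summed to 40.4 to 40.9 CPM in kn1-e1 ears and 17.4 to 18.6 CPM in siblings, the lateral organ markers to 118 to 120 and 169 to 180 CPM, and the inflorescence markers to 694 to 712 and 927 to 959 CPM. Their part, and that of primordium size, was not tested.

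In the kn1-e1 SAM none of the 5 genes was called by edgeR and none by DESeq2, where edgeR called 0.164% of all genes tested. At an unadjusted p under 0.05 there were 0 of 5, against 981 of all 20748 genes tested. All 5 overlapped between genotypes, against 33.8% of all genes that did not. ARF2 measured 12.3 and 13.3 CPM in kn1-e1 and 10.6 and 12.4 CPM in siblings. ARF3 measured 138 and 146 CPM in kn1-e1 and 136 and 140 CPM in siblings. ARF11 is where the sibling libraries part: 48.8 and 50.9 CPM in kn1-e1 stood beside 35.3 and 49.2 CPM in siblings.

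The ARF11 difference in SAM was 0.24 ± 0.14 (log2; edgeR adjusted p = 0.954). It became 0.50 ± 0.11 (edgeR adjusted p = 0.00045) without sibling replicate 2, and 0.02 ± 0.11 (edgeR adjusted p = 0.986) without sibling replicate 1. The number of genes called in SAM moved from 34 to 1746 and 110 with the same omissions. ARF13 measured 481 and 563 CPM in kn1-e1 and 560 and 582 CPM in siblings. ARF28 measured 295 and 297 CPM in kn1-e1 and 293 and 348 CPM in siblings, and its difference of -0.11 ± 0.14 became 0.02 ± 0.11 without sibling replicate 2 and -0.23 ± 0.11 without replicate 1.

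The change with kn1-e1 was next compared between tissues in a joint fit of 14 libraries from both inflorescences and the SAM. For ARF2 the change in SAM minus that in ear was 0.79 ± 0.14 on the log2 scale (edgeR adjusted p = 0.00523), and it passed in 19 of 19 alternatives. Without sibling SAM replicate 1 or 2 it was 0.91 ± 0.16 or 0.65 ± 0.15. ARF28 passed for the same contrast only without replicate 1, at -0.28 ± 0.08 (adjusted p = 0.0256). For ARF11 the same contrast was 0.71 ± 0.15 (edgeR adjusted p = 0.0113), or 0.47 ± 0.11 and 0.92 ± 0.12 without sibling SAM replicate 1 or 2. It did not pass without mutant ear replicate 1 (adjusted p = 0.0642), sibling ear replicate 2 (0.0676) or mutant SAM replicate 2 (0.058). These 2 of 5 genes compare with 5.46% of all genes tested.

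Between ear and tassel, 0 of the 5 changes differed by edgeR or by DESeq2, against 5.22% of all genes called by edgeR. At an unadjusted p under 0.05 there were 2, against 4666 of all 22387 genes tested. The values were -0.34 ± 0.12 for ARF2 (edgeR adjusted p = 0.103) and -0.38 ± 0.13 for ARF11 (edgeR adjusted p = 0.0941). With either sibling SAM library left out of that fit, ARF11 passed at -0.37 ± 0.08 (adjusted p = 0.00862 and 0.00867). Between SAM and tassel edgeR called 0 of 5, against 1.18% of all genes. At an unadjusted p under 0.05 there were 4, against 2970 of all 22387 genes tested. DESeq2 called 2, ARF13 and ARF28. Their edgeR values were -0.31 ± 0.09 (adjusted p = 0.125) and -0.33 ± 0.09 (adjusted p = 0.113). The rises of ARF13 and ARF28 in tassel are therefore not shown to be particular to that tissue. Without sibling SAM replicate 1 ARF28 passed (-0.45 ± 0.07, adjusted p = 0.0027), and without replicate 2 ARF11 (0.55 ± 0.11, adjusted p = 0.00704) and ARF13 (-0.31 ± 0.08, adjusted p = 0.0319) passed. Leaving out mutant SAM replicate 1 gave -0.44 ± 0.08 for ARF13 in SAM minus tassel. The 3 contrasts share libraries in pairs.

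Leaf and ear comparisons share no library. ARF3 was higher and ARF11 lower both in Kn1-N/Kn1-N leaf, where kn1 was raised, and in kn1-e1 ear, where it was reduced. Over all genes, 1094 were called in both comparisons, which is 29.7% of the leaf calls and 29.6% of the ear calls among genes tested in both. Of these, 152 were higher in both, 270 lower in both and 672 moved in opposite directions. The 4 ARF3 and ARF11 calls held under library totals, although the ear calls over all genes then shifted from 44.2% to 63.4% higher. They did not all hold elsewhere. With DESeq2, ARF11 in leaf (adjusted p = 0.0766) and ARF3 in ear (adjusted p = 0.0885) did not pass. With all 20 libraries in 1 edgeR fit these 2 values also failed (adjusted p = 0.0727 and 0.249). Under either of these, neither gene was called in both leaf and ear. Tassel and ear, which also share no library, had ARF2 lower in both; 591 genes were called in both, 401 of them in the same direction.

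Across the control libraries the genes did not all share a tissue pattern, tested in 1 fit of 9 libraries. Tissue cannot be told apart there from growth place, age and the genotype of the siblings. ARF2 was highest in WT leaf (35.8 ± 0.566 CPM, SD, n = 2) and sibling tassel (34.0 ± 1.86 CPM, n = 3), which overlapped. Sibling ear followed at 26.6 ± 0.761 CPM (n = 2) and sibling SAM at 11.5 ± 1.31 CPM (n = 2), each below its neighbour without overlap. ARF2 was 1.63 ± 0.10 higher in leaf than in SAM (log2; 3.10-fold; edgeR adjusted p = 3.72e-10).

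ARF3 and ARF11 were highest in ear and had the same order of tissue means. ARF3 measured 425 ± 8.48 CPM in sibling ear (n = 2), 198 ± 15.6 CPM in tassel (n = 3), 147 ± 1.87 CPM in WT leaf (n = 2) and 138 ± 3.02 CPM in SAM (n = 2). Leaf and SAM were neighbours that did not differ in the test (0.10 ± 0.08 on the log2 scale, edgeR adjusted p = 0.285). ARF11 measured 223 ± 8.49 CPM in ear, 139 ± 5.80 CPM in tassel, 45.6 ± 0.141 CPM in leaf and 42.3 ± 9.82 CPM in SAM, the last 2 overlapping. Leaf minus SAM was 0.12 ± 0.11 for ARF11 (log2; edgeR adjusted p = 0.346). It was 0.37 ± 0.08 (adjusted p = 0.00033) without sibling SAM replicate 2 and -0.10 ± 0.08 (adjusted p = 0.255) without replicate 1. SAM minus ear was -2.40 ± 0.11 for ARF11 on the log2 scale (edgeR adjusted p = 5.86e-11), the widest of the 5 genes in this comparison.

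ARF13 and ARF28 were lowest in leaf. ARF13 measured 726 ± 8.61 CPM in ear, 560 and 582 CPM in SAM, 556 ± 1.79 CPM in tassel and 329 ± 11.7 CPM in leaf. SAM and tassel did not overlap in CPM, but their difference of 0.05 ± 0.06 did not pass (log2; edgeR adjusted p = 0.496). ARF28 measured 320 ± 38.7 CPM in SAM and 308 ± 2.25 CPM in tassel, which overlapped, then 254 ± 10.9 CPM in ear and 137 ± 2.43 CPM in leaf. Leaf was below tassel by -1.16 ± 0.08 for ARF28 and by -0.74 ± 0.07 for ARF13 (log2; edgeR adjusted p = 1.04e-09 and 4.06e-08). SAM minus tassel for ARF28 was 0.07 ± 0.07 (edgeR adjusted p = 0.433), but 0.18 ± 0.05 (adjusted p = 0.00704) without sibling SAM replicate 1 and -0.05 ± 0.05 (adjusted p = 0.414) without replicate 2.

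**Figure D3:**
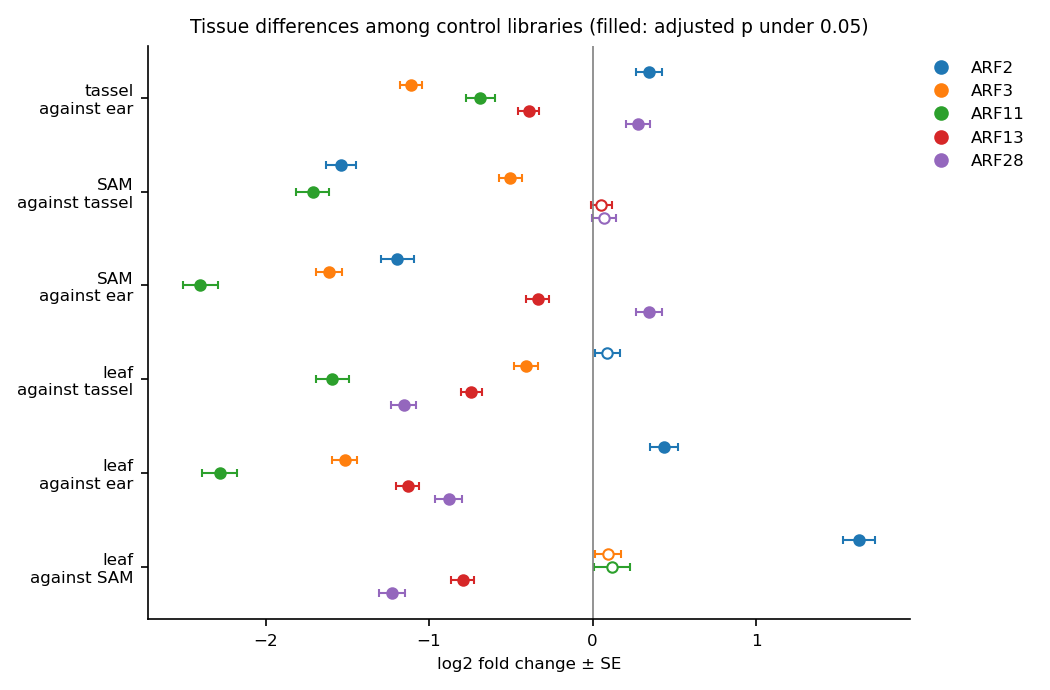
Log2 fold change (horizontal axis, bars are SE) of the 5 genes between control tissues, first tissue over second; filled points have an adjusted p under 0.05 over all genes tested. All 5 genes are filled in tassel against ear, with ARF2 and ARF28 right of 0 (0.35 and 0.28) and the others left of it.

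Between sibling tassel and ear all 5 genes were called, 2 higher and 3 lower in tassel, against 36.8% of all genes tested (17.8% higher and 19% lower); ARF28 did not pass without sibling ear replicate 2 (adjusted p = 0.119). SAM and tassel differed for 3 of 5, all lower in SAM, against 54.5% of all genes (27.4% higher and 27.1% lower). SAM and ear differed for 5 of 5 (1 higher and 4 lower in SAM), against 47.8% (23.6% higher and 24.2% lower). Leaf and tassel differed for 4 of 5, all lower in leaf, against 73.7% of all genes (37.2% higher and 36.5% lower). Leaf and ear differed for 5 of 5 with 1 higher in leaf, against 69.7% (35.6% higher and 34.1% lower). Leaf and SAM differed for 3 of 5 with 1 higher in leaf, against 72.5% (37.1% higher and 35.4% lower). Counted in either direction, shares of this size lie near the background for leaf against the other tissues. By direction, 4 of 5 were lower in leaf than in tassel, against 36.5% of all genes, and 4 of 5 than in ear, against 34.1%. Compared with SAM, 2 of 5 were lower in leaf, against 35.4%. The 6 comparisons share control libraries.

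Of the 15 other ARF rows, 12 could be tested in each genotype comparison. In Kn1-N/Kn1-N leaf 4 of these 12 rose and 0 fell by edgeR, against 9.16% of all genes higher and 9.59% lower, and DESeq2 called 2. Their median was 0.13 on the log2 scale, against 0.0072 over all genes tested. ARF23 rose by 0.47 ± 0.08 (edgeR adjusted p = 0.00102; 12 of 12 alternatives), from 27.6 and 28.9 CPM in WT to 38.6 and 39.2 CPM in homozygotes. ARF30 rose by 0.33 ± 0.08 (edgeR adjusted p = 0.0158; 10 of 12) and ARF4 by 0.29 ± 0.08 (edgeR adjusted p = 0.0197; 7 of 12). In kn1-e1 ear 1 of 12 rose and 2 fell by edgeR, against 18.6% of all genes called, and DESeq2 also called 3. ARF12 fell by 0.33 on the log2 scale (SE 0.06; edgeR adjusted p = 0.00161; 10 of 10 alternatives) and ARF17 by 0.44 (SE 0.09; edgeR adjusted p = 0.00431; 9 of 10). ARF18 rose by 0.23 ± 0.06 (edgeR adjusted p = 0.0172; 7 of 10). In tassel edgeR and DESeq2 called 0 of these 12, and in SAM 0 by every rule. At an unadjusted p under 0.05 tassel had 2, against 4578 of all 21117 genes tested. In Kn1-N/+ against WT and in homozygotes against heterozygotes both tools also called 0, with 1 and 2 at an unadjusted p under 0.05. Of all 22071 genes tested in these comparisons, 1561 and 4653 reached that rule.

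**Figure D4:**
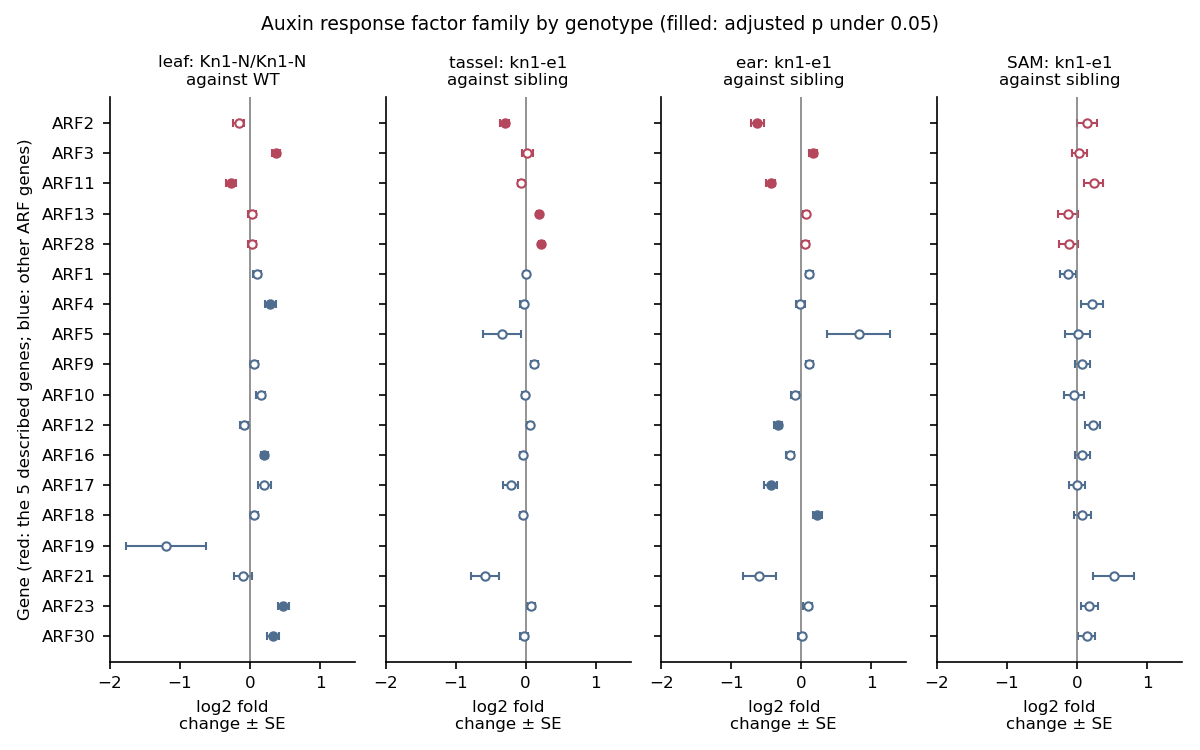
Log2 fold change (horizontal axes, bars are SE) of every ARF gene tested in 4 genotype comparisons; red marks the 5 described genes, blue the others, and filled points have an adjusted p under 0.05. In Kn1-N/Kn1-N leaf ARF4, ARF16, ARF23 and ARF30 are filled right of 0; in ear ARF12 and ARF17 are filled left of 0 beside ARF2 and ARF11.

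Other genes of the auxin response were counted from lists matched by symbol. Of the Aux/IAA genes, whose proteins bind and repress response factors, 2 of 16 tested rose and 2 fell in Kn1-N/Kn1-N leaf by edgeR, against 18.8% of all genes called, and DESeq2 called 2. BIF4, named for its barren inflorescence mutant, rose by 1.95 ± 0.25 (log2; edgeR adjusted p = 0.000223) from 0.911 and 1.27 CPM to 4.09 and 4.30 CPM, and AUX35 fell by 0.46 (SE 0.12; edgeR adjusted p = 0.0177; 9 of 12 alternatives, adjusted p up to 0.179). In kn1-e1 tassel 1 of 17 rose and 3 fell by edgeR, against 7.91% of all genes called, and DESeq2 called 2. AUX35 fell by 0.92 (log2; SE 0.10; edgeR adjusted p = 0.000202), and AUX6 was higher by 0.21 ± 0.05 (edgeR adjusted p = 0.0141; 8 of 12 alternatives, adjusted p up to 0.0941). In ear 1 of 18 rose and 4 fell by edgeR, against 18.6% of all genes called, whereas DESeq2 called 1. AUX14 was up by 0.49 ± 0.08 (edgeR adjusted p = 0.00137) and AUX32 down by 1.25 (log2; SE 0.31; edgeR adjusted p = 0.0127; 7 of 10 alternatives), at mean levels of only 0.811 CPM against 1.96 CPM in siblings. In SAM 0 of 16 were called by either tool, and 0 at an unadjusted p under 0.05.

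The single row with the symbol GH3, a family of enzymes that join auxin to amino acids, rose by 1.99 ± 0.27 in Kn1-N/Kn1-N leaf (log2; edgeR adjusted p = 0.000352), from 0.775 and 0.911 CPM to 3.31 and 3.39 CPM. In kn1-e1 ear this row rose by 0.58 ± 0.12 (edgeR adjusted p = 0.00453; 9 of 10 alternatives). The corepressor gene rel2 rose in ear by 0.18 ± 0.05 (edgeR adjusted p = 0.0277; 7 of 10 alternatives); the other 2 corepressor genes, RELK2 and RELK3, were called in no genotype comparison. Of 5 rows of the small RNA pathway, lbl1 rose in Kn1-N/Kn1-N leaf by 0.20 ± 0.06 (edgeR adjusted p = 0.0252; 6 of 12 alternatives). In ear 3 of the 5 rows rose by edgeR, against 8.21% of all genes higher, whereas DESeq2 called 0 of them there. They were rdr6, by 0.24 ± 0.07 (edgeR adjusted p = 0.0211; 7 of 10 alternatives), and 2 of the 3 rows of dcl4. The dcl4 row GRMZM2G024466 passed in 6 of 10 alternatives. The single saur3 row was too low to test, and no row carried a TIR1 or AFB symbol.

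Likeness was measured as Pearson's r of log2 CPM over the 9 group means, among 2073 named genes; the 9 means come from 4 tissues, so the points cluster by tissue and r is a description. ARF2 was most like c2, which encodes chalcone synthase (r = 0.973), bZIP45 (0.973) and bHLH172 (0.967). ARF3 was most like sbe1, a starch branching enzyme (0.979), NF-YA11 (0.977) and MADS11 (0.969). ARF11 was nearest to the spikelet meristem gene bd1 (0.988), pep7 (0.986) and the auxin biosynthesis gene spi1 (0.985). No read of bd1 was counted in 5 of the 9 groups, all leaf and SAM groups, so its r rests on values set there by the prior count. ARF13 was most like the SBP-box gene sbp6, ARF10 and aldh2 (0.987, 0.987 and 0.986), and ARF28 like CYP88A1, a gibberellin biosynthesis gene, SnRK2.6 and sfp1 (0.992, 0.988 and 0.988). MADS11 had no read in 2 groups and lay under 1 CPM in 7, bZIP45 was under 1 CPM in 5, c2 and CYP88A1 in 3 and sfp1 in 2, and their r likewise leans on low values. Ranking by Spearman's rho kept 1 of these for ARF28 and 0 for the others. Among the 5 genes, r was highest for ARF13 with ARF28 (0.855) and lowest for ARF2 with ARF28 (-0.571).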

How the data were processed

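RNA was sequenced from 20 maize libraries in 9 groups. The authors deposited raw counts per gene, 1 column a library; per the submitters' processing notes CASAVA 1.8, TopHat 1.2.0, HTSeq and DESeq 1.4.1 were used, without role or order. Neither genome build nor counting rules were given in the sources used here. Per the labels' protocols, Trizol RNA went into TruSeq RNA libraries, a kit that keeps no strand. Gene symbols were looked up in the RefSeq annotation (assembly Zm-B73-REFERENCE-NAM-5.0), which matched 18775 of 39656 IDs (47.3%), 520 to more than 1 gene.

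Counts were fitted with edgeR 4.0.16 in R 4.3.3 (TMM, count minimum 10, total 15, quasi-likelihood F test) separately for leaf, tassel, ear and SAM, for 9 control libraries, and for 14 tassel, ear and SAM libraries. A gene was called below an adjusted p of 0.05 (Benjamini-Hochberg, across the genes of a fit). SEs come from the F statistic and are approximate. The fits were tested on simulated data as a check of the code. These data had the same spread in all groups of a fit, so they do not mimic the sibling SAM libraries that stood apart. Same-numbered replicates did not deviate together (r -0.117 to 0.052), so numbers were not used as pairs.

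Alternatives were library totals, DESeq2 size factors, DESeq2 1.42.0, no filter, replicate block, 1 fit of 20 libraries and leaving out each library. The members, gene lists and tests were chosen with earlier results of these data known. Named besides the 5 genes and kn1 were up to 3 called other ARF genes a comparison and up to 2 a pathway list by smallest p, and the 3 genes of highest likeness with at least 1 CPM (prior count 2).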

Additional observations from a re-analysis of the deposited data

Results flagged for a closer look

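The change with kn1-e1 differed between tissues, by the edgeR contrast of the 2 genotype differences, for 2 of the 5 genes and for 4 of the 16 other named genes tested in these 3 contrasts. All were chosen with these data known, and the other genes for a small p in a genotype comparison, in some cases one that the contrast contains. Such a choice favours a difference between tissues, so these values are a description and no count here supports one. Over all genes tested, 5.22% were called for ear minus tassel, 1.18% for SAM minus tassel and 5.46% for SAM minus ear. The share called in any of the 3 contrasts was not computed. No group held the 4 libraries that a check for outlying libraries needs. ARF2 differed between SAM and ear by 0.79 (adjusted p = 0.00523), with values of 0.15 in SAM and -0.63 in ear. ARF11 differed between SAM and ear by 0.71 (adjusted p = 0.0113), with 0.24 in SAM and -0.44 in ear. ARF12 differed by -0.40 between ear and tassel (adjusted p = 0.0176) and by 0.57 between SAM and ear (adjusted p = 0.00472), with mean levels of 170 CPM in kn1-e1 ears and 214 CPM in sibling ears. AUX35 differed by 0.90 between ear and tassel (adjusted p = 0.0293); its mean levels were 6.39 and 12.1 CPM in kn1-e1 and sibling tassels and 5.38 and 5.47 CPM in ears. AUX14 differed by -0.84 between SAM and ear (adjusted p = 0.0388), and rdr6 by -0.38 (adjusted p = 0.0438). The contrasts that use SAM rest on the 2 sibling SAM libraries that stand apart from each other.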

How the results depend on the processing

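Over all alternatives, 981 of 1050 values of the 5 genes kept their direction and their side of the threshold, 24 fell short of it, 16 newly passed and 29 changed sign; every sign change was in a value that was not called. Under library totals these were ARF13 (-0.0067) and ARF28 (-0.011) in homozygous leaf, ARF13 in heterozygous leaf (-0.0050) and between homozygotes and heterozygotes (-0.0017), ARF2 in leaf minus tassel (-0.0067), and ARF3 in leaf minus SAM (-0.020) and in the kn1-e1 change of SAM minus tassel (-0.017). ARF13 in heterozygous leaf was -0.0015 with DESeq2 size factors or DESeq2 and -0.0028 with all 20 libraries in 1 fit. Of the group means in CPM of the 5 genes, 20 moved by their SD or more under library totals and 25 by less. For example, ARF13 in WT leaf went from 329 to 314 CPM. Library totals moved the median of all genes from -0.0099 to -0.11 for leaf minus tassel and from -0.0024 to -0.12 for leaf minus SAM. The higher and lower calls moved from 2022 and 2117 to 1529 and 2585 in homozygous leaf and from 1748 and 2207 to 2666 and 1541 in ear. For the contrasts they moved from 668 and 501 to 861 and 280 for ear minus tassel, from 183 and 82 to 145 and 117 for SAM minus tassel and from 749 and 474 to 347 and 863 for SAM minus ear.

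Without 1 library at a time, the uncalled values that changed sign ranged, against WT in homozygous leaf, from -0.0075 to 0.067 for ARF13 and -0.028 to 0.068 for ARF28; in heterozygous leaf from -0.13 to 0.028 for ARF2, -0.033 to 0.041 for ARF13 and -0.031 to 0.0069 for ARF28; between homozygotes and heterozygotes from -0.0071 to 0.045 for ARF13 and -0.016 to 0.079 for ARF28. ARF3 ranged from -0.066 to 0.12 in tassel, -0.0038 to 0.077 in SAM and -0.075 to 0.11 in the change of SAM minus tassel. ARF28 ranged from -0.23 to 0.016 in SAM and -0.053 to 0.18 in SAM minus tassel, and ARF11 from -0.10 to 0.37 in leaf minus SAM.

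DESeq2 called 2397 genes in homozygous leaf (4139 in edgeR; 1 of the 5 genes), 612 between homozygotes and heterozygotes (1049), 1846 in ear (3955), and 2 of the 5 for SAM minus tassel. With all 20 libraries in 1 fit, homozygous leaf kept 1 of the 5, homozygotes against heterozygotes 0, and SAM had 64 calls (34); library totals also left 0 of the 5 between homozygotes and heterozygotes. Without a filter SAM had 111 calls, ear minus tassel 2151 (1 of the 5), SAM minus tassel 857 (2 of the 5) and SAM minus ear 1970 (1169, 265 and 1223 with it). With replicate number as a block, SAM had 72 calls, ear minus tassel 775 and SAM minus ear 769, and the numbers of the 5 genes called were the same in every comparison; crossing the SAM numbers, chosen after seeing the data, gave 105.

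Leaving out 1 library gave 1061 to 5777 calls in homozygous leaf (0 to 2 of the 5 genes), 8 to 628 in heterozygous leaf, 166 to 3105 between homozygotes and heterozygotes (0 to 1), 884 to 2228 in tassel (2 to 3), 1169 to 5899 in ear (2 to 4), 48 to 1746 in SAM (0 to 1), 5257 to 10493 between sibling tassel and ear (4 to 5), 373 to 2290 for ear minus tassel (0 to 1), 105 to 1644 for SAM minus tassel (0 to 2) and 378 to 2191 for SAM minus ear (1 to 3). A lone library left in a group is assumed to vary like the others. The cause of these moves was not tested. Of the values of other named genes, 160 kept their call and 38 lost it. With 2 or 3 libraries a group, the SEs of the 5 genes' differences by genotype ran from 0.03 in tassel to 0.15 in SAM on the log2 scale, which limits the changes that could be seen.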
